A study of Mus musculus with 21 samples.

Results

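The genes described here are 9 components of the enzymes that make superoxide, hydrogen peroxide and nitric oxide in the mouse colon. They are Cybb, Cyba, Ncf1 and Ncf4 of the phagocyte NADPH oxidase, Nox1, Duox2 and Duoxa2 of the epithelial oxidases, Nox4, and Nos2, the inducible nitric oxide synthase. They were listed by name, with earlier results of these data known, and they stand against 27374 genes that carry a symbol on either array design. Every non-control probe of a member was collected, 15 at day 7 and 20 at day 0, and each gene is described by the probe with the highest mean signal of that day, with its other probes beside it.

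An NADPH oxidase passes electrons from NADPH across a membrane to oxygen. In neutrophils and macrophages the membrane pair of gp91phox (Cybb) and p22phox (Cyba) is switched on by cytosolic subunits, among them p47phox (Ncf1) and p40phox (Ncf4), during the oxidative burst against microbes. Colonocytes use other isoforms: Nox1, which also needs p22phox, and Duox2, which releases hydrogen peroxide at the apical surface and needs the maturation factor Duoxa2 to leave the endoplasmic reticulum. Nos2 makes nitric oxide from arginine and is known as a gene of inflamed epithelium and activated macrophages.

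The study asked what the loss of Card9, an adaptor of innate immune receptors, does to the colon without a microbiota. RNA of whole colon from male germ-free (GF) C57BL/6J mice was hybridized to single-color Agilent arrays, before dextran sulfate sodium (DSS) at day 0 (7 arrays labelled GF Card9-/-, 6 labelled GF WT) and at day 7 of 2% DSS in the drinking water (4 arrays of each label). DSS injures the colonic epithelium and is the common chemical model of colitis. The loss of Card9 is in the germline, so all cells of the tissue are affected. Each day has its own array design, so day and design cannot be told apart and no level is compared between the days. Whole tissue was used, and in it fewer cells of a type and less RNA per cell cannot be told apart.

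Card9 went against the labels. At day 0 its probe read 8.71 to 9.24 on the normalized log2 scale on the 7 arrays labelled GF Card9-/- while none of the 6 GF WT arrays gave a signal well above background. At day 7 it read 7.93 to 8.57 on the 4 arrays labelled GF Card9-/- and was well above background on 1 of 4 GF WT arrays, replicate 1, at 7.85. The other GF WT values are at or near the substitute for dim spots, so no difference is given. Where the probes lie relative to the deleted part is not given in the sources used here. All directions below are therefore those of the labels, always GF Card9-/- minus GF WT, and every sign would turn if the labels were exchanged. The values here come from the arrays alone and do not settle how the labels run. GF WT replicate 1 at day 7 stands apart from its group in Card9 whichever way they run, so the day 7 differences are also given without it. Between 42.2% and 57.1% of the spots were well above background on the day 7 arrays and between 54.5% and 64.9% on the day 0 arrays. Pancreas markers stood out on replicates 2.1 and 6 labelled GF Card9-/- at day 7 and on replicate 7 at day 0, with scores (mean log2 deviation over the list) of 4.28, 8.22 and 10.17 where no other array exceeded -0.21. The list is Prss2, Cela1, Cela2a, Cpa1, Cpb1, Pnlip, Ctrb1 and Try4. Replicates 2 and 2.1 labelled GF Card9-/- at day 7 may come from 1 mouse, since the labels do not say. Their difference had an SD of 0.85 over the tested probes, where other pairs of 1 group had a median of 0.91, so they were kept as 2 samples. Counted once, they left 0 probes called, and Nox1 at -1.32 (adjusted p = 0.954 by limma). Markers of the labelled tissue were present: 11 of 12 colon epithelium markers had a probe at day 7 and 12 of 12 at day 0, and each was well above background on at least 1 array.

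The first 30 bases of 8 of the 60-base probes are shown, those of Nox1, of the Duox genes, whose probes differ, and of Cybb and Ncf4 at day 7, so that these values can be traced to a stretch of the transcript. They are written 5′ to 3′ as spotted, and the positions that follow are those of the whole probe on mm9.
Nox1, A_55_P1997906: ggttttcttatgtggccctcggactttggc
Duox2, A_66_P134717: tttgcgatgtatagcaaggagaggaaagcc
Duox2, A_55_P1974760: tgccagctcatcaacaggcaggaccgggcc
Duox2, A_51_P436977: gcttgtcgggttccctaacccctacctctg
Duoxa2, A_51_P365744: aaatattaccactctcctgtgaaaataact
Duoxa2, A_55_P2107374: gtgcctttgctctagagaatggatttctca
Cybb, A_55_P2082733: tttccttgtctttatttttcttgcagacaa
Ncf4, A_51_P377452: tgatgtaagatgcaaacctcctggcccaga
The Nox1 probe lies on chrX:130621740-130621799 and is on both designs. The Duox2 probes lie on the minus strand at chr2:122105952-122106011, chr2:122106173-122106232 and chr2:122108679-122108738. The Duoxa2 probes lie on the plus strand at chr2:122128112-122128171 and chr2:122128268-122128327, the Cybb probe at chrX:9013216-9013275 and the Ncf4 probe at chr15:78092903-78092962.

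No member passed the test between the genotypes on either day. At an adjusted p under 0.05 limma called none of the 44643 day 7 probes (0%), or 1511 without adjustment, and 12 of the 47410 day 0 probes (0.0253%). By their brightest probes, 1 of the 9 members had an unadjusted p under 0.05 at day 7, Nox1, and 0 of 9 at day 0. Over all tested member probes there were 2 of 15 at day 7, those of Nox1 and a dim one of Duoxa2, against 3.38% of all probes, and 0 of 16 at day 0, against 5.84%. The dim Duoxa2 probe was also the 1 of 15 whose genotypes did not overlap at day 7, as 2.13% of all probes did, and at day 0 there were 0 of 16, against 0.458%. The genotypes overlapped in all 9 brightest probes on both days. Without GF WT replicate 1 at day 7, whose Card9 signal is like that of the other label, Cybb differed by -0.37, Cyba by 0.07, Ncf1 by 0.69, Ncf4 by 0.53, Duox2 and Duoxa2 by 0.44 each, Nox4 by 0.18 and Nos2 by 0.16, so Cyba changed sign and the Nox4 and Ncf4 differences moved most among the rest. None of these passed the test. The plot of member values by array shows them gene by gene.

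**Figure D1:**
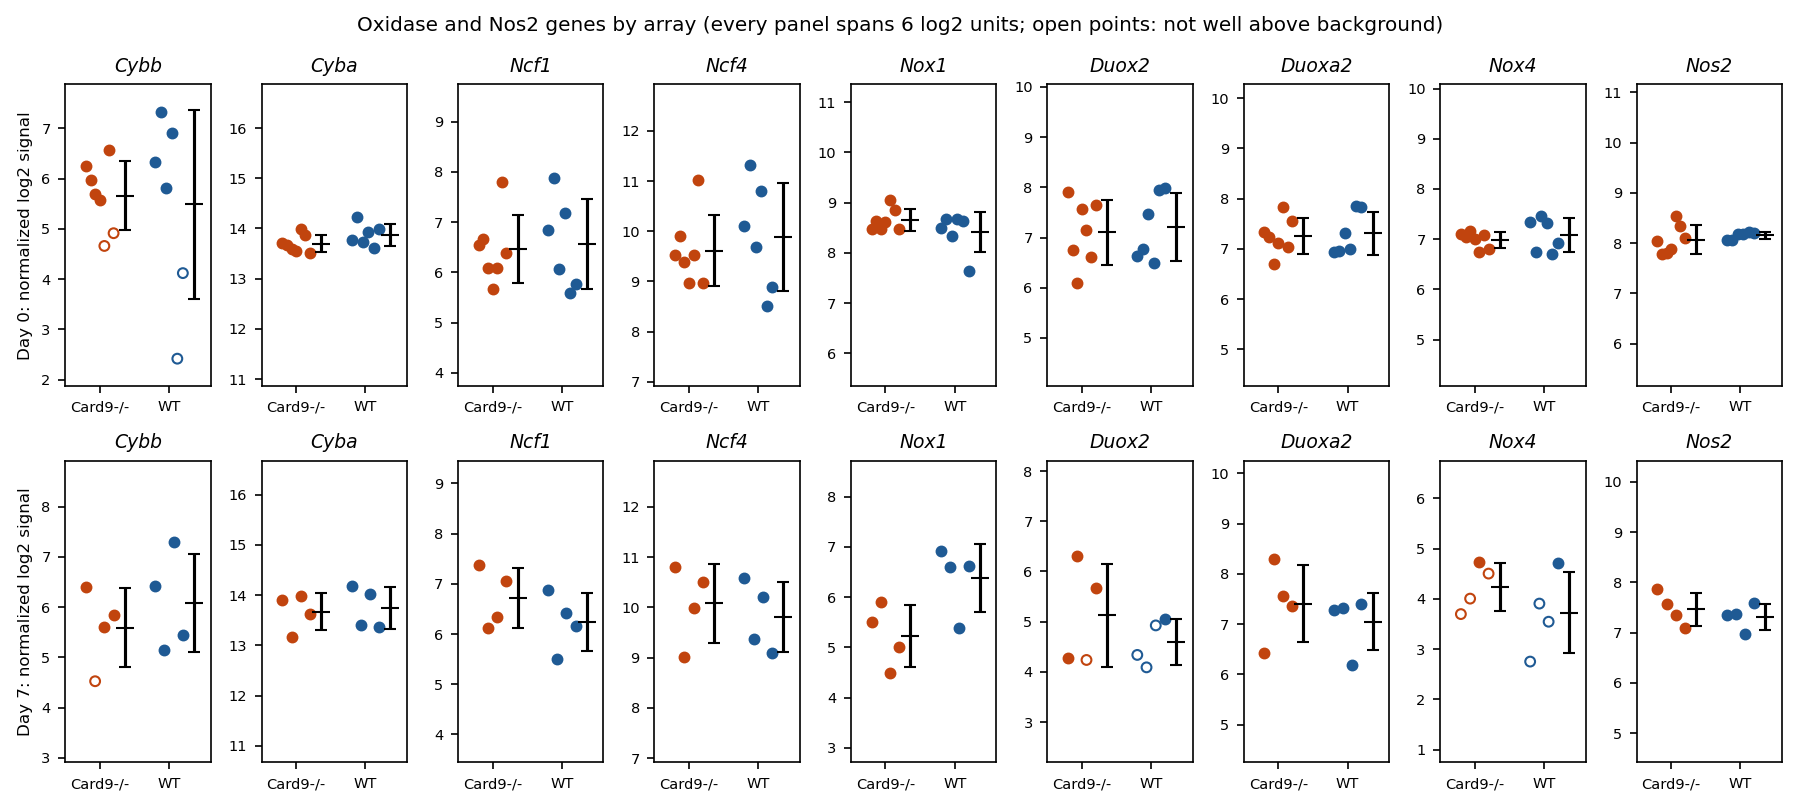
Normalized log2 signal of the brightest probe of each of the 9 genes, 1 point per array, at day 0 (top, 7 arrays labelled GF Card9-/- and 6 GF WT) and day 7 (bottom, 4 of each); bars are the mean and SD, open points are not well above background, and every panel spans 6 log2 units. The genotypes overlap in every panel, with Nox1 at day 7 the pair of groups whose means lie farthest apart (5.22 and 6.38).

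Nox1, the catalytic subunit of the colonocyte superoxide-producing oxidase, had the largest difference of the 9 genes at day 7. The arrays labelled GF Card9-/- read 5.50, 5.90, 4.49 and 5.00 (replicates 2, 2.1, 4 and 6) and the GF WT arrays 6.93, 6.60, 5.39 and 6.62 (replicates 1, 4, 5 and 6), all well above background. Only GF WT replicate 5 fell within the range of the other genotype. The highest array was GF WT replicate 1, the one whose Card9 signal is like that of the other label. The difference was -1.16 (SE 0.42, 95% interval -2.14 to -0.18), 2.24-fold, with an unadjusted p of 0.0263 and an adjusted p of 0.913 from limma. Without GF WT replicate 1 it was -0.98 (adjusted p = 0.941 by limma). The exact permutation test of the 8 arrays gave p = 0.0857, where 0.0286 is the smallest p it can give. Within the 2 slides that hold both genotypes the difference was -1.11 and -0.71, and it was -0.58 with normexp background correction and -0.67 in the authors' table. The neutrophil score, which separated the labels at day 7, ran against Nox1 over the 8 arrays (r = -0.812, rho -0.738, exact permutation p = 0.0151, adjusted p = 0.118), and its part in the Nox1 difference was not tested. A second Nox1 probe at day 7 was well above background on 1 of 8 arrays, GF WT replicate 5, and gives no level for the other genotype (r = 0.013 with the first). That array read 5.89 on it, the highest of the 8, but was the lowest GF WT array on the first probe. GF WT replicate 1, the highest on the first probe, carried the substitute for dim spots on the second.

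At day 0 Nox1 did not follow that direction. The 7 arrays labelled GF Card9-/- ran from 8.47 over a median of 8.62 to 9.06 and the 6 GF WT arrays from 7.65 over 8.57 to 8.68. The difference was 0.24 (SE 0.17, adjusted p = 0.912 by limma). A second, dimmer Nox1 probe was well above background on no array. The low end was GF WT replicate 6, without which the difference was 0.088. Its slide also holds the 2 highest arrays labelled GF Card9-/-, replicates 5 and 6, and without the whole slide the difference was -0.031. Markers of small intestine were also highest on that array, with a score of 2.35 against at most 0.54 on the other 12, and their part in its Nox1 value was not tested.

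The Nox1 difference at day 7 minus that at day 0, on the same probe, was -1.40 (SE 0.40, 95% interval -2.24 to -0.56). Its unadjusted p was 0.00242 and its adjusted p 0.425 over the 23633 probes shared by the designs and detected at both days, so it did not pass. Of the 7 members with a shared probe, Nox1 was the 1 with an unadjusted p under 0.05, against 7.14% of all shared probes, and 0 of those probes (0%) passed after adjustment. The estimate stayed between -1.73 and -1.16 as each of the 21 arrays was left out in turn. The other 6 members had differences between the days from -0.22 (Cybb) to 0.58 (Ncf1), each with an interval that included 0. Duoxa2 has no shared probe, and the shared Nox4 probe did not pass the detection filter at day 0.

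**Figure D2:**
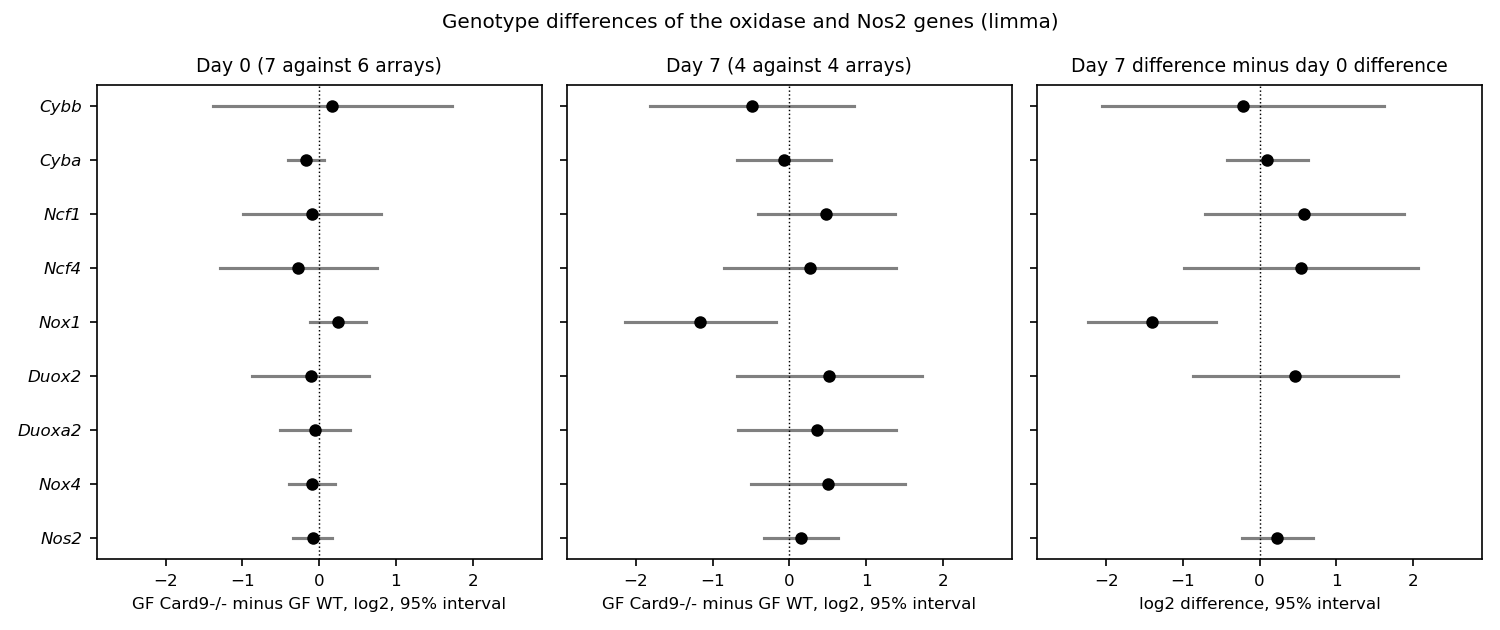
Genotype difference (arrays labelled GF Card9-/- minus GF WT, log2) with its 95% interval from limma for the 9 genes at day 0 and day 7, and the day 7 difference minus the day 0 difference for the 7 genes with a shared probe. Nox1 is the only gene whose interval excludes 0 at day 7 (-1.16) and in the comparison of the days (-1.40), before any adjustment for the number of probes.

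The partners of Nox1 showed no comparable difference. Noxo1, the organizer subunit, differed by -0.05 (SE 0.13) at day 7 and -0.07 (SE 0.07) at day 0, and Noxa1, the activator subunit, by 0.06 (SE 0.28) and 0.07 (SE 0.07). Rac1, the small GTPase of the complex, differed by 0.02 (SE 0.11) and -0.03 (SE 0.06). Of the 5 genes of the Nox1 system, Cyba included, 0 passed the test on either day, and the median difference was -0.05 at day 7 and -0.03 at day 0, where the median of all probes was 0.00 and 0.02.

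Duox2, the apical hydrogen peroxide source of colonocytes, was close to background at day 7. The arrays labelled GF Card9-/- read 4.28, 6.31, 4.24 and 5.67 (replicates 2, 2.1, 4 and 6), of which 3 were well above background, and the GF WT arrays 4.34, 4.09, 4.93 and 5.05 (replicates 1, 4, 5 and 6), of which replicate 6 alone was. The highest 2 of these 8 values came from replicates 2.1 and 6, the arrays with pancreas markers. The difference was 0.52 (SE 0.51, 95% interval -0.68 to 1.73, adjusted p = 0.913 by limma), and -0.34 without those 2 arrays. Within slides it was -0.77 on one and 2.22 on the other, in opposite directions. A second, dimmer Duox2 probe gave 0.15 (SE 0.24).

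Duoxa2, which Duox2 needs to reach the surface, was well above background on all 8 arrays at day 7. It read 6.42, 8.30, 7.55 and 7.36 on the arrays labelled GF Card9-/- and 7.28, 7.33, 6.19 and 7.39 on the GF WT arrays, a difference of 0.36 (SE 0.44, adjusted p = 0.919 by limma). Replicate 2.1 was the highest and GF WT replicate 5 the lowest, and the groups overlapped. Without replicates 2.1 and 6 the difference was -0.058, and within slides it was -0.97 and 0.97. A dimmer Duoxa2 probe gave 1.07 (SE 0.41, unadjusted p = 0.0337, adjusted p = 0.913 by limma), with the 4 arrays labelled GF Card9-/- above the 4 GF WT arrays, but it was well above background on only 3 of the 8. The 2 Duoxa2 probes correlated weakly over the 8 arrays (r = 0.105).

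At day 0 both Duox genes were well above background on all 13 arrays. Duox2 ran from 6.10 over 7.15 to 7.90 on the arrays labelled GF Card9-/- and from 6.48 over 7.12 to 7.99 on GF WT (difference -0.11, SE 0.35). Duoxa2 ran from 6.70 over 7.24 to 7.83 and from 6.94 over 7.15 to 7.84 (difference -0.05, SE 0.21). The 95% intervals ran from -0.87 to 0.65 for Duox2 and from -0.51 to 0.41 for Duoxa2. The Duox2 probes disagreed with each other. The 2 probes nearest the 3′ end, shown above at chr2:122105952-122106011 and chr2:122106173-122106232, varied together across the 13 arrays (r = 0.929), the second giving 0.06 (SE 0.37), while A_51_P436977, designed for another transcript and lying farther upstream, did not follow them (r = -0.318 and -0.185). That probe read higher on the arrays labelled GF Card9-/- (0.39, SE 0.20, adjusted p = 0.895 by limma), with 5 of 7 above every GF WT array.

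Duox1 and Duoxa1, the neighbouring pair of the same family, were not well above background on more than 1 array of either day, so their differences (-0.26 and -0.24 at day 7, 0.51 and 0.76 at day 0) rest on dim values. Of the 4 genes of the Duox system 0 passed the test on either day.

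The phagocyte oxidase members scattered widely among arrays of one genotype. Cybb, the catalytic subunit, read 6.40, 4.52, 5.60 and 5.84 at day 7 on the arrays labelled GF Card9-/-, with replicate 2.1 not well above background, and 6.43, 5.14, 7.29 and 5.45 on the GF WT arrays. The groups overlapped and the difference was -0.49 (SE 0.57, 95% interval -1.82 to 0.84, adjusted p = 0.918 by limma). At day 0 Cybb ran from 4.66 over 5.69 to 6.57 on the arrays labelled GF Card9-/- (5 of 7 well above background) and from 2.42 over 6.07 to 7.33 on GF WT (4 of 6). The difference was 0.17 (SE 0.72) on this probe and -0.27 (SE 0.57) on the second one, which is the one used at day 7. The 2 probes varied together (r = 0.839), and without GF WT replicate 5 or 6, the lowest arrays of their group, the first probe gave -0.44 or -0.10.

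Ncf1, the organizer p47phox, read 7.38, 6.12, 6.33 and 7.06 at day 7 on the arrays labelled GF Card9-/- and 6.87, 5.51, 6.42 and 6.16 on GF WT, a difference of 0.48 (SE 0.38). Ncf4, p40phox, read 10.81, 9.02, 9.99 and 10.51 against 10.59, 9.37, 10.20 and 9.10, a difference of 0.27 (SE 0.48). Both had adjusted p above 0.9 in limma and overlapping groups, and replicate 2 was the highest array for both. At day 0 Ncf1 ran from 5.68 over 6.38 to 7.80 on the arrays labelled GF Card9-/- and from 5.60 over 6.46 to 7.88 on GF WT, a difference of -0.10 (SE 0.41). A second Ncf1 probe gave 0.02 (SE 0.34) and followed the first (r = 0.921), and another was well above background on none of the 13 arrays. Ncf4 ran from 8.96 over 9.52 to 11.02 and from 8.52 over 9.90 to 11.32, a difference of -0.27 (SE 0.47).

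Cyba, whose p22phox serves the phagocyte enzyme and Nox1 alike, was far steadier. It read 13.90, 13.17, 13.99 and 13.62 at day 7 on the arrays labelled GF Card9-/- and 14.17, 13.41, 14.02 and 13.37 on GF WT, a difference of -0.07 (SE 0.26). A second day 7 probe, also well above background on all 8 arrays, gave -0.01 (SE 0.22) but followed the first only loosely (r = 0.385). At day 0 it ran from 13.51 over 13.67 to 13.98 against 13.61 over 13.85 to 14.23, a difference of -0.18 (SE 0.11, adjusted p = 0.912 by limma). A second day 0 probe gave -0.19 (SE 0.11) and followed the first over the arrays (r = 0.924). Another, well above background on 1 of 13 arrays, gave 0.32 (SE 0.46) and did not (r = -0.245).

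The other genes of the phagocyte oxidase showed no difference that passed the test: 0 of 9 listed genes on either day. Rac2, the haematopoietic GTPase of the complex, differed by 0.73 (SE 0.40) at day 7 and 0.04 (SE 0.41) at day 0. The median difference was 0.11 at day 7 and -0.01 at day 0. No neutrophil marker passed the test at day 7 either. All 10 markers tested of 12 were higher by the mean on the arrays labelled GF Card9-/-, Cxcr2 and Ngp among them without a signal well above background, with a median difference of 0.33 and list scores from 0.03 to 0.71 against -0.43 to -0.20 on GF WT. S100a8 and S100a9, abundant calcium-binding proteins of neutrophils, differed by 1.46 and 1.65 (adjusted p = 0.913 for both by limma), but were well above background on only 1 and 5 of the 8 arrays. Ly6g differed by 0.06, and Mmp8 and Ltf also stayed at background throughout. Over the 8 arrays the score correlated with Cybb at r = -0.123, with Cyba at -0.00068, with Ncf1 at 0.478 and with Ncf4 at 0.305. The summed linear signal of the list overlapped between the genotypes, at 39021 to 52473 against 37080 to 45019. That sum mostly follows Csf3r, the brightest marker, which read 15.16 to 15.54 against 15.11 to 15.35 in log2. The next brightest, Ly6g, reached 11.98, so the sum says little about the dimmer markers of the list. Of the macrophage markers 8 of 12 were higher, with a median of 0.06. All 6 B cell markers were higher, with a median of 0.42 and overlapping scores (-1.34 to 2.07 against -1.33 to 0.98). Of the smooth muscle and fibroblast markers 1 of 10 was higher, with a median of -0.33. Of the colon epithelium markers 9 of 11 were higher, with a median of 0.28 and overlapping scores (-0.06 to 0.40 against -0.63 to 0.15). At day 0 9 of 12 were higher, with a median of 0.06. The part of epithelium content in the Nox1, Duox2 and Duoxa2 differences was not tested. At day 0 the marker medians lay on the other side for macrophages and B cells: 0 of 12 macrophage markers were higher (median -0.36), 0 of 6 B cell markers (median -0.17) and 0 of 10 smooth muscle and fibroblast markers (median -0.51), with overlapping scores and none past the test, while 5 of 9 neutrophil markers were higher (median 0.03). The part of neutrophil, macrophage or B cell content in the phagocyte values was not tested on either day.

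Across arrays, the phagocyte genes Cybb, Ncf1 and Ncf4 rose and fell together. Over the 13 arrays of day 0 Ncf1 and Ncf4 correlated at r = 0.950 (Spearman rho 0.918), Cybb and Ncf4 at r = 0.839 (rho 0.940), and Cybb and Ncf1 at r = 0.782 (rho 0.901). Permutation p-values, two-sided over 100000 resamples, were 1e-05 for Ncf1 with Ncf4, the smallest they can give, 0.00022 for Cybb with Ncf4 and 0.00148 for Cybb with Ncf1. Adjusted over the 72 pairs of both days these were 0.00072, 0.00792 and 0.0266. The same arrays were high or low in all 3 genes: replicate 6 labelled GF Card9-/- and GF WT replicates 2 and 4 at the top, and GF WT replicate 5 at the bottom. The arrays at the top also had the highest B cell scores of the day (2.75, 2.25 and 1.38). The array at the bottom, at -0.77, did not have the lowest. The part of B cell content in these relations was not tested.

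The 3 relations were positive within both genotypes and both scan sessions, though within the 7 arrays labelled GF Card9-/- only Ncf1 with Ncf4 had an exact permutation p under 0.05. Ncf1 with Ncf4 gave r = 0.920 within the 7 arrays labelled GF Card9-/- and 0.978 within the 6 GF WT arrays, and 0.967 and 0.958 within the 2 sessions. Cybb with Ncf4 gave 0.667 and 0.951 within genotypes and 0.895 and 0.779 within sessions, and Cybb with Ncf1 gave 0.652 and 0.889, and 0.874 and 0.757. Without the 2 arrays farthest from the median, r was 0.892, 0.847 and 0.795 in the order given. Over all arrays of day 0 Cyba followed less closely, at r = 0.648 with Ncf4, 0.56 with Ncf1 and 0.361 with Cybb (adjusted p over 0.05 for each). The sessions differed: in that order r was 0.907, 0.878 and 0.639 in session 1, but 0.279, 0.264 and -0.300 in session 2. Without the slide of GF WT replicate 6 it was 0.918, 0.873 and 0.640. With percentile scaling over all arrays it was 0.339, 0.246 and -0.054. The part of slide and session in these relations was not tested.

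At day 7 all 6 pairs among the 4 phagocyte genes were positive, from r = 0.544 to 0.851 over 8 arrays. The closest was again Ncf1 with Ncf4 (r = 0.851, rho 0.905, exact permutation p = 0.00833, adjusted p = 0.0857), and 0 of the 6 passed after adjustment, while 4 had an exact permutation p under 0.05.

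**Figure D3:**
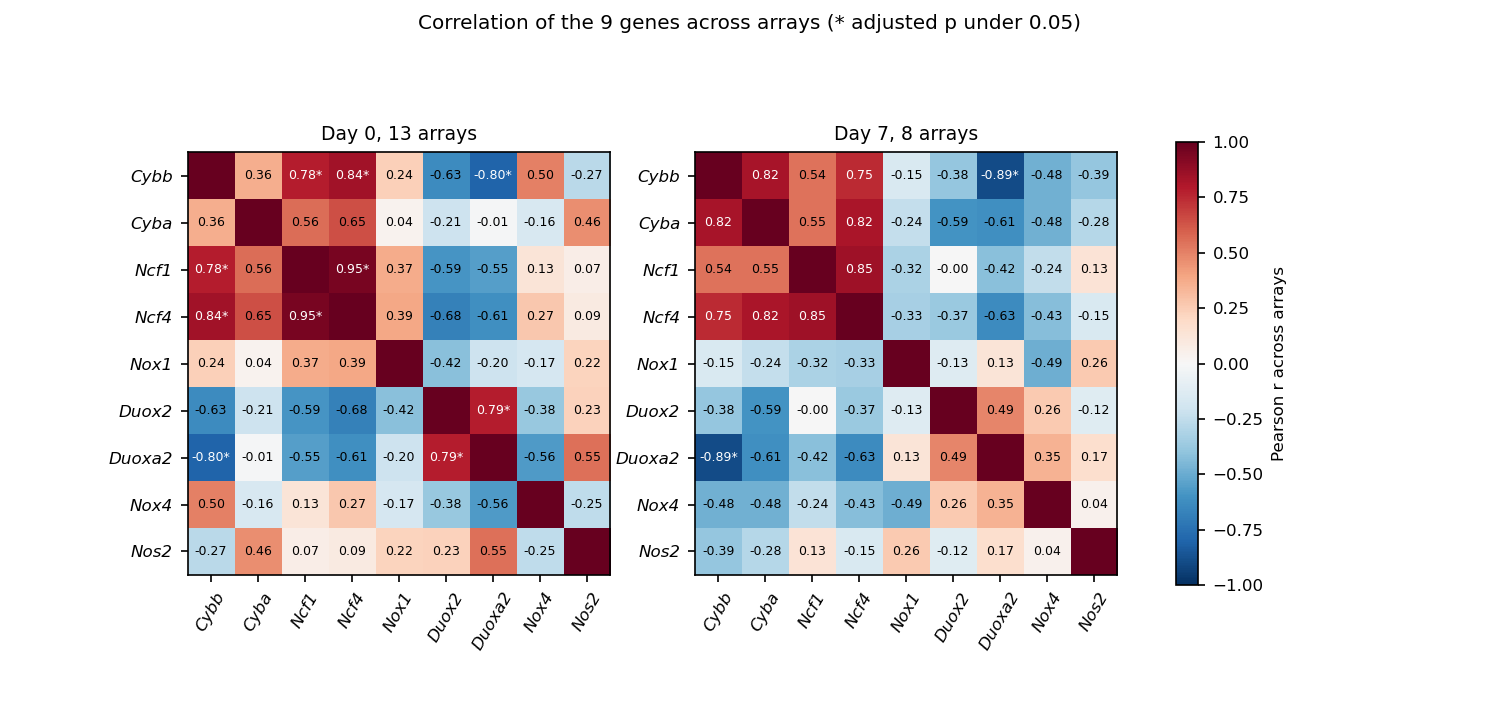
Pearson r between the 9 genes across the 13 arrays of day 0 (left) and the 8 arrays of day 7 (right), with an asterisk where the permutation p of r adjusted over the 72 pairs was under 0.05. The phagocyte genes form a positive block on both days (day 0 Ncf1 with Ncf4 0.950) and Duoxa2 is negative against Cybb on both days (-0.800 and -0.894).

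The Duox genes ran against Cybb, Ncf1 and Ncf4 at day 0. At day 0 Duox2 and Duoxa2 correlated with each other at r = 0.787 (rho 0.846, permutation p = 0.00188, adjusted p = 0.0271), with r = 0.601 and 0.968 within the genotypes, 0.970 and 0.551 within the sessions, and 0.663 without the 2 farthest arrays. Duoxa2 correlated with Cybb at r = -0.800 (rho -0.747, permutation p = 0.00063, adjusted p = 0.0151, adjusted p of rho 0.0575, so the rank form did not pass). That relation was -0.636 and -0.939 within genotypes, -0.814 and -0.911 within sessions, and -0.679 without the 2 farthest arrays, GF WT replicates 5 and 6. All 8 pairs of a phagocyte gene with a Duox gene were negative at day 0, from r = -0.800 to -0.009, 1 of them past adjustment and 6 at an unadjusted p under 0.05. At day 0 macrophage markers moved with both Cybb and Duoxa2, as given below, and their part in the relation of these genes was not tested.

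At day 7 the same 8 pairs were negative too, from r = -0.894 to -0.001. Duoxa2 with Cybb had r = -0.894 (rho -0.810, exact permutation p = 0.00382, adjusted p = 0.0458, adjusted p of rho 0.120, so the rank form did not pass), and -0.607 without replicate 2.1 labelled GF Card9-/- and GF WT replicate 5 (exact permutation p = 0.192) on the 6 arrays left. The colon epithelium score correlated with both genes at day 7, short of the threshold after adjustment (r = -0.863 with Cybb and 0.794 with Duoxa2, rho -0.786 and 0.690, exact permutation p = 0.00737 and 0.0196, adjusted p = 0.0858 and 0.118), and GF WT replicate 5 had the lowest epithelium score, -0.63. Their part in the relation was not tested. Duox2 with Duoxa2 gave r = 0.488 at day 7 (exact permutation p = 0.215) and -0.287 without replicates 2.1 and 6 labelled GF Card9-/-, on a Duox2 probe that was well above background on 4 of the 8 arrays.

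**Figure D4:**
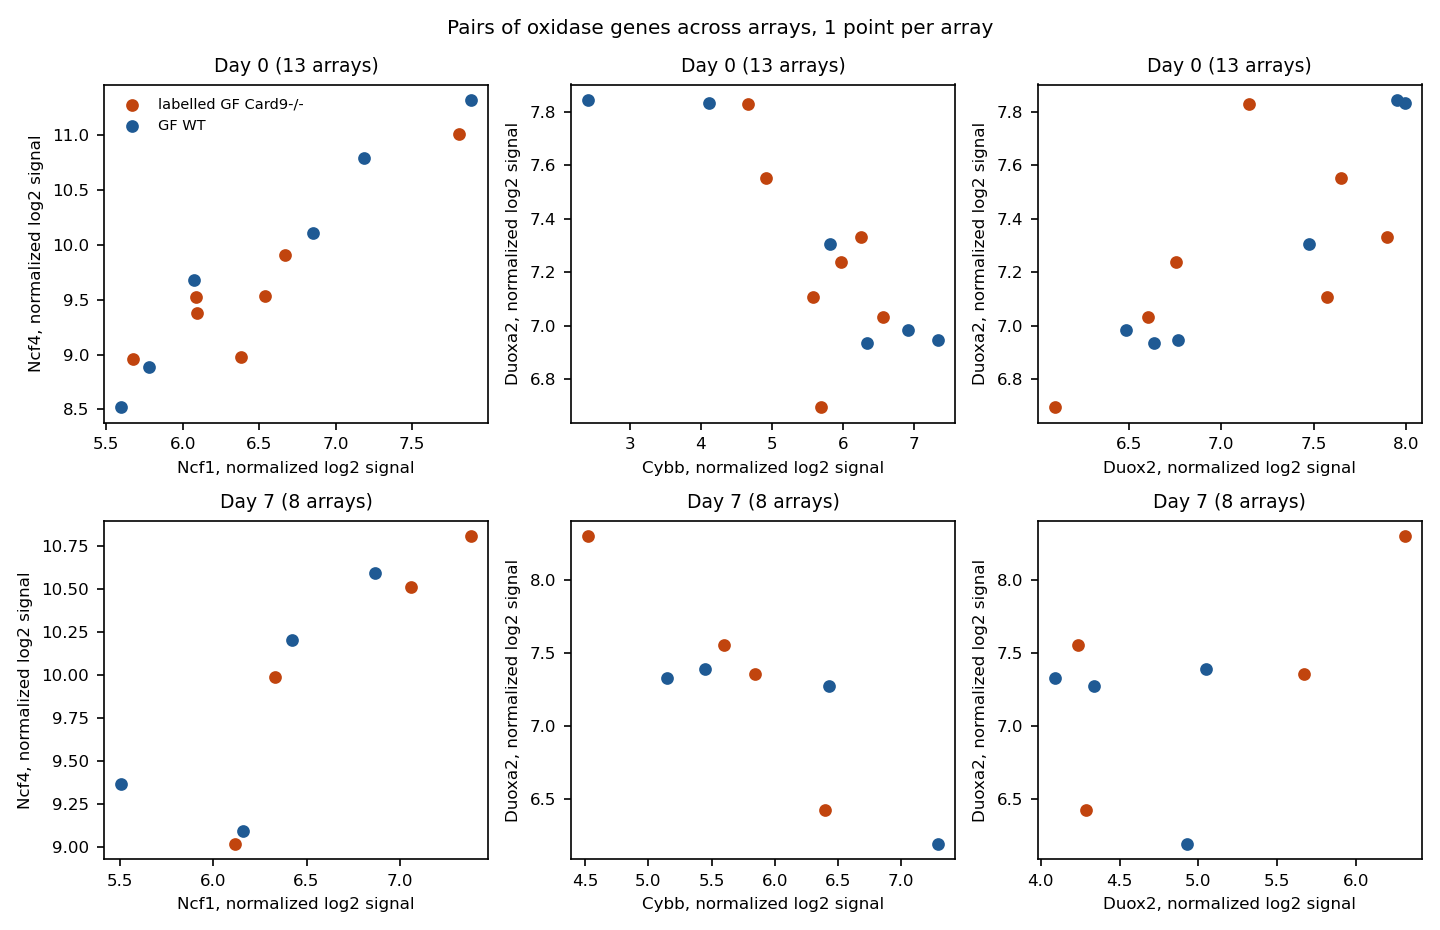
Normalized log2 signals of Ncf4 against Ncf1, Duoxa2 against Cybb and Duoxa2 against Duox2, 1 point per array, at day 0 (top, 13 arrays) and day 7 (bottom, 8 arrays), coloured by label. Over the 13 arrays of day 0 r was 0.950, -0.800 and 0.787, and at day 7 the Cybb panel is spread mainly by 1 array at each end.

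The members were also set beside the cell type markers. Of 108 relations between the 9 genes and 6 marker lists on the 2 days, chosen after the member values were seen, 8 passed adjustment of the permutation p of r. At day 0 Cybb was closest to the macrophage score (r = 0.865, rho 0.852, permutation p = 6e-05, adjusted p = 0.00324), and 0.788 and 0.988 within the genotypes. Ncf1 was closest to the B cell score (r = 0.928, rho 0.819, permutation p = 2e-05, adjusted p = 0.00216), and Ncf4 too (r = 0.881, rho 0.769, permutation p = 9e-05, adjusted p = 0.00324). The B cell score ranged from -1.90 to 2.75 over the 13 arrays. At day 7 Ncf1 and Ncf4 again lay closest to the B cell score (r = 0.934 and 0.921, rho 0.976 and 0.952, exact permutation p = 0.000174 and 0.00176, adjusted p = 0.00469 and 0.0272).

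Cyba had no relation past adjustment on either day, and its r of largest size was against the colon epithelium score on both (day 0 r = -0.660, rho -0.643, permutation p = 0.0144, adjusted p = 0.118). At day 7 its r was -0.745 (rho -0.905, exact permutation p = 0.0232 and 0.00456, adjusted p = 0.122 and 0.0548). The remaining relations past adjustment were Cybb and Ncf1 with the neutrophil score at day 0 (r = 0.790 and 0.794, permutation p = 0.00038 and 0.00118, adjusted p = 0.00821 and 0.0212) and Duoxa2 with the macrophage score at day 0 (r = -0.768, rho -0.676, permutation p = 0.00301, adjusted p = 0.0406, adjusted p of rho 0.125). Each of the 8 kept its sign without the 2 arrays farthest from the median, with sizes of r from 0.588 to 0.886. Within the scan sessions of day 0 they also kept their sign. Duox2 with the pancreas score at day 7 had r = 0.763 but rho 0.286 (exact permutation p = 0.0350 and 0.501, adjusted p = 0.164), and r = -0.325 without the 2 farthest arrays, which are the 2 with pancreas RNA.

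Duox2 and Duoxa2 lie head to head on chromosome 2, Duox2 on the minus strand ending its 5′ side at 122298740 and Duoxa2 on the plus strand from 122298900 (GRCm38.p6, RefSeq). The 159 bases between them are shown because the genes varied together at day 0, with matches to 2 motifs in capitals: chr2:122298741-122298899, plus strand.
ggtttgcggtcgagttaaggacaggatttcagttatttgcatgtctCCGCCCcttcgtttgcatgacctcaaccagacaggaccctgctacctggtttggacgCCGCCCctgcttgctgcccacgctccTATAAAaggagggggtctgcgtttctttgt
Both strands were searched for the letters of 4 motifs, and each share is that of the 32851 RefSeq promoters that hold the motif in the last 159 bases before the start. The TATA box, searched as TATAAA, has 1 match, on the Duoxa2 strand 30 bases before its start, and is in 7.95% of promoters. The GC box, searched as GGGCGG, has 2 matches on the other strand and is in 29.2%. The CCAAT box is not in this stretch and is in 25.4%. The AP-1 site, searched as TGACTCA, is not in this stretch and is in 3.01%.

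Nos2 varied little. At day 7 it read 7.87, 7.56, 7.34 and 7.09 on the arrays labelled GF Card9-/- and 7.35, 7.38, 6.96 and 7.59 on GF WT, a difference of 0.15 (SE 0.21, 95% interval -0.33 to 0.63). At day 0 it ran from 7.77 over 8.05 to 8.54 against 8.06 over 8.18 to 8.22, a difference of -0.08 (SE 0.12, 95% interval -0.34 to 0.17). The GF WT arrays of day 0 lay close together (SD 0.07, n = 6), inside the spread of the other genotype (SD 0.28, n = 7). With quantile normalization none of the pairs of Nos2 with another member passed adjustment on either day. Cyba with Nos2 at day 0 depended on the scaling, at r = 0.465 and rho 0.467 with quantile normalization. With percentile scaling r was 0.719 (permutation p = 0.00599, adjusted p = 0.0554). Its rho was then 0.824 (permutation p = 0.00093, adjusted p = 0.0167), so the rank form alone passed.

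The enzymes around Nos2 also stayed below the threshold, with 0 of 11 tested genes called at day 7 and 0 of 12 at day 0. Nos3, the endothelial synthase, differed by 0.17 (SE 0.29) and -0.24 (SE 0.32), and Ass1, which recycles citrulline to arginine, by -0.35 (SE 0.34) and -0.04 (SE 0.08). Slc7a2, an arginine transporter, had the lowest p of the list at day 0 (0.75, SE 0.23, unadjusted p = 0.00758, adjusted p = 0.558 by limma), from values well above background on 1 of 13 arrays.

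Nox4, an oxidase of mesenchymal cells that makes hydrogen peroxide without cytosolic subunits, had 3 probes at day 7, each well above background on 2 of 8 arrays. The brightest read 3.70, 4.01, 4.74 and 4.50 against 2.75, 3.91, 3.55 and 4.71, of which 1 array of each genotype was well above background, so the difference of 0.51 (SE 0.43) compares mostly dim values. The other 2 gave -0.23 (SE 1.04) and 0.91 (SE 0.53). At day 0 the 3 probes for its RefSeq or a second Ensembl transcript were well above background on no array. The remaining probe, designed for ENSMUST00000124269 at chr7:94436116-94436175 on mm9, was on all 13, and ran from 6.74 over 7.05 to 7.16 against 6.70 over 7.12 to 7.46 (difference -0.09, SE 0.14). Since the other Nox4 probes stayed dark on the same arrays, whether this probe reports Nox4 mRNA was not tested.

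The enzymes that clear superoxide and peroxide showed little. Of 23 genes tested on each day 0 passed. At day 7 17 of 23 were higher by the mean on the arrays labelled GF Card9-/-, with a median of 0.09 where that of all probes was 0.00 and 50.4% of all probes were higher, and at day 0 9 of 23 were higher with a median of -0.05. Prdx5, a peroxiredoxin, was the 1 gene of 23 whose genotypes did not overlap at day 7, as 2.13% of all probes did (0.32, SE 0.16, adjusted p = 0.913 by limma). Among the haem peroxidases, which use the hydrogen peroxide, Mpo of neutrophils was well above background on no array at day 7 and on 1 at day 0. Lpo was on 7 of 8 arrays at day 7 and on 13 at day 0, with differences of 0.31 (SE 0.49) and -0.01 (SE 0.50).

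**Figure D5:**
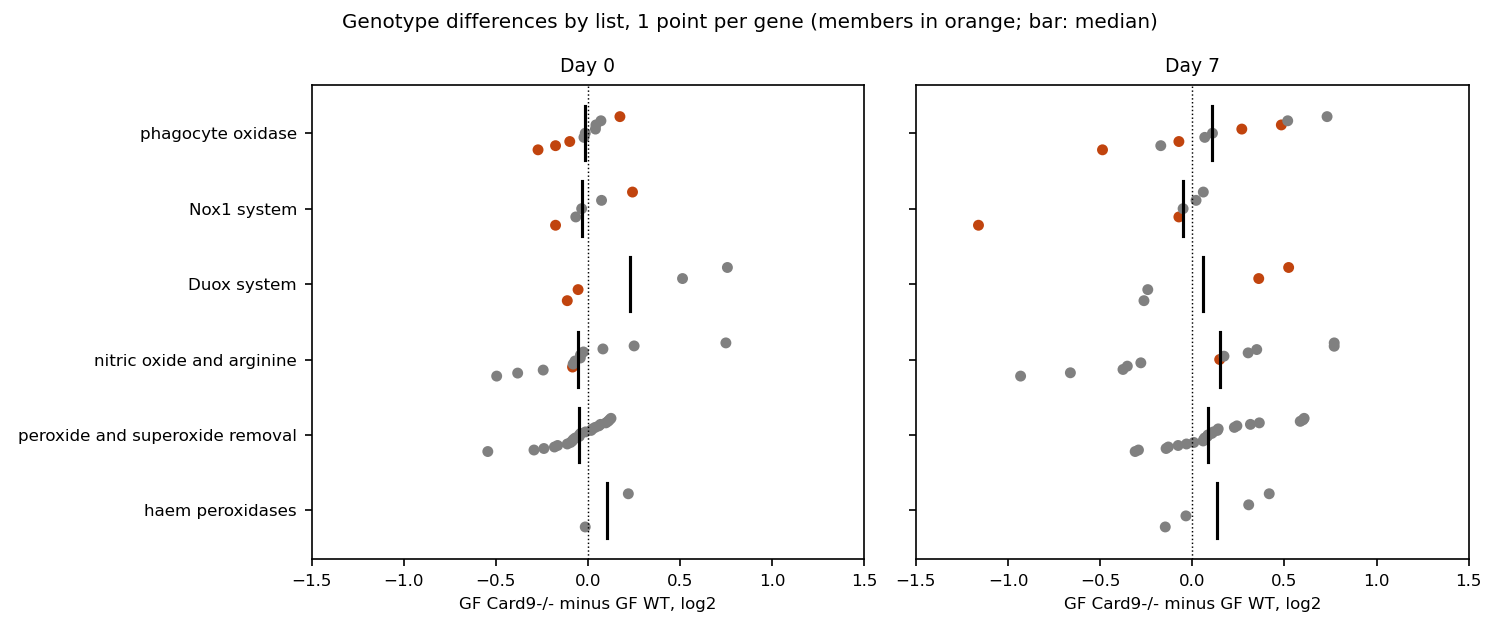
Genotype difference (arrays labelled GF Card9-/- minus GF WT, log2) of every tested gene in 6 lists at day 0 and day 7, 1 point per gene with the 9 described genes in orange and the list median as a bar. No point passed the test, and Nox1 at day 7 (-1.16) is the farthest from 0.

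The genes whose levels most resembled those of 4 members were sought among all genes well above background on at least 50% of the arrays. At day 0, over 13 arrays and 17202 genes, Cybb was closest to Gpr65, Batf, Ms4a6c, Evi2a and Ly86 (r = 0.962 to 0.984). Nox1 was closest to Atp8b5, St3gal6, Esrrg, B3gnt5 and Ppa1 (0.951 to 0.958), and Duox2 to Gm14137, Cd63, Ppil6, Rap2b and Dap (0.903 to 0.939). Nos2 was closest to 1700119H24Rik, Nabp1, Nkap, Lyrm1 and B130034C11Rik (0.883 to 0.898). At day 7, over 8 arrays and 15320 genes, Nox1 was closest to Pimreg, Gm19843, Nek2, Ckap2 and Snrnp48 (0.967 to 0.979), Cybb to Ssh1, Abca1, Nfat5, Mpv17 and A330023F24Rik (0.976 to 0.989), Duox2 to Car1, Wwc1, Bspry, 9130230L23Rik and Alg3 (0.930 to 0.971), and Nos2 to 1700039I01Rik, Gm3561, 1500011B03Rik, Spata32 and Bax (0.938 to 0.978). For each member the 5 names on the 2 days had no gene in common. These r values are descriptions over few arrays, and no p is given.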

How the data were processed

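Arrays were read with Feature Extraction 10.7.3.1 by the authors, per the labels and the file headers. The deposited spot intensity is linear, detrended in space and not normalized between arrays, and spots not above background carry a substitute value. Each spot also carries a deposited p-value for its signal over background. The authors also deposited a log2 table per design, used here as an alternative.

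The processed signal was log2-transformed and quantile normalized within a day, spots of a probe were averaged, and a probe was tested when 60% or more of one genotype's arrays detected it (p under 0.05). The study's methods name agilp, quantile normalization, that detection filter and limma, and the other steps were chosen here. Genotypes were compared with limma 3.58.1 in R 4.3.3 (lmFit, eBayes, Benjamini-Hochberg), whose test also gives every adjusted p named limma's. Probes were named through their RefSeq record, otherwise by the deposited symbol. Correlations used permutation of arrays in Python 3.11.15. Precision is limited by how many arrays there are.

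The labels do not say whether samples are separate mice, so p-values measure the spread between these samples. Members and gene lists were chosen with earlier results of these data known. The named genes are the 9 members, Card9, fixed partners, list genes that pass the test, and at most 3 per list whose genotypes do not overlap. Other list genes named were chosen after their values were seen. The fits and permutation tests were tested on simulated data. Marker lists were neutrophil, macrophage, B cell, colon epithelium, smooth muscle and fibroblast, pancreas and small intestine. Alternatives were another scaling, background correction, filters, the deposited log2 table, slide, session and replicate blocks, and leaving out arrays. Some genes of the lists are not reported here.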

Additional observations from a re-analysis of the deposited data

Results flagged for a closer look

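In 2 of the 36 groups of members and genotypes checked, 1 array stood apart from the rest by Dixon's criterion, where chance gives 1.8. Nox1 on GF WT replicate 6 at day 0 read 7.65, with the nearest of the other 5 arrays at 8.34 and the farthest at 8.68. Duoxa2 on GF WT replicate 5 at day 7 read 6.19, with the nearest of the other 3 at 7.28 and the farthest at 7.39.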

How the results depend on the processing

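None of the 574 alternative values of the 25 member differences passed the threshold (lowest adjusted p 0.2003, the Nox1 difference between the days, by limma), and 41 changed sign. Nox1 at day 7 stayed between -1.86 and -0.58 under 11 settings and between -1.49 and -0.92 as arrays were left out in turn. The causes of the changes below were not tested. At day 7 Nox4 gave -0.16 with dim values raised to the floor, and without replicates 2.1 and 6 labelled GF Card9-/- Cyba gave 0.20, Duoxa2 -0.058 and Duox2 -0.34. At day 0 Cybb gave -0.12 with normexp, -0.10 in the authors' table, -0.25 with the floor, -0.047 as the mean of its probes and -0.082 without the slide of GF WT replicate 6, where Nox1 gave -0.031 and Duox2 0.13. Duox2 gave 0.11 as the mean of its probes. Scan session 1 alone gave -0.078 for Nox1 and 0.077 for Nox4, and session 2 alone 0.013 for Nos2 and 0.18 for Ncf1.

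Leaving out 1 array at a time, Cyba ranged from -0.20 to 0.095 at day 7, Cybb from -0.80 to -0.083, Ncf1 from 0.24 to 0.69, Ncf4 from 0.027 to 0.62, Duox2 from 0.13 to 0.82, Duoxa2 from 0.064 to 0.69, Nox4 from 0.18 to 0.83 and Nos2 from 0.014 to 0.27. At day 0 Cybb ranged from -0.44 to 0.54, Duox2 from -0.26 to 0.055, Duoxa2 from -0.15 to 0.053, Ncf1 from -0.32 to 0.17 and Ncf4 from -0.54 to 0.017. The difference between the days ranged from -0.023 to 0.27 for Cyba and from -0.53 to 0.22 for Cybb.

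The 12 probes called at day 0 became 27 with normexp, 22 in the authors' table, 1 and 3 within scan sessions 1 and 2, and 8 to 16 as arrays were left out. At day 7 the count of 0 became 0 to 1 (1 without GF WT replicate 1, the Card9 probe), and between the days 0 to 2 (2 without GF WT replicate 5 or 6 of day 7). The 6 correlations past adjustment became 4 with 75th percentile scaling, where Duox2 with Duoxa2 at day 0 (r = 0.736) and Cybb with Duoxa2 at day 7 (r = -0.869) had an adjusted permutation p of 0.0554. Their number was 2 without the 2 farthest arrays, and 3 to 8 as arrays were left out (3 without GF WT replicate 1, 4 or 5 of day 0). Within either genotype at day 0 it was 0. With 6 GF WT arrays the smallest p the exact permutation test can give, 0.00139, does not pass alone over 36 pairs. The 0 within GF WT was therefore close to fixed in advance.

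Replicate numbers did not pair the samples: same-numbered arrays correlated at -0.02 to 0.37 at day 0, where 2 of 6 were closest to their own number, and at 0.03 and 0.11 at day 7. With the replicate block 7 probes were called at day 0 and 0 at day 7, where Cyba gave 0.42, Nos2 -0.27 and Cybb 0.42. Dim probes limit Duox2 and Nox4 at day 7 and Cybb at day 0.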
